A study of Mus musculus with 9 samples.

Results

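Cells of 6620c1, a line from a mouse pancreatic tumor, were compared after 14 days and after 2 days of what the labels call nutrient and oxygen deprivation. The question was what separates cells deprived for longer from cells recently deprived. The comparison used 6 of the 9 sequenced samples, 3 from day 14 and 3 from day 2, and tested all genes with at least 1 TPM (an abundance corrected for gene length and library size) in at least 3 of the 9 samples. That rule kept 12693 of 24493 gene rows. The 3 samples of day 0 entered the estimate of the spread, and their values are given beside the others without a test.

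Both groups stood in a DMEM with amino acids at 20% of the usual level, glucose at 2.5 mM and 0.5% of fetal calf serum. The labels call the condition one of nutrient and oxygen deprivation and name no further treatment. They give no oxygen level, and they list the same medium for day 0. An undeprived sample of day 14 is not among them, so the effects of deprivation and of the time itself cannot be told apart. The columns carry the prefix WT, whose meaning the labels do not give. They also do not say whether the 3 samples of a day came from separate cultures, so p-values cover the differences among these samples alone, which can be technical.

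Cells short of glucose, amino acids, serum factors and oxygen leave the division cycle and turn on programmes that save or import what is missing. The HIF transcription factors, stabilised when oxygen is low, raise glycolytic enzymes and glucose uptake. ATF4 and CHOP, active under amino acid shortage and stress of the endoplasmic reticulum, raise amino acid uptake and synthesis. Genes of the cycle are tied to it through their promoters: E2F factors drive genes of DNA replication, and the DREAM and MuvB complexes act on genes of mitosis through the CHR element and its neighbouring CCAAT boxes.

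At day 14, 3474 genes were higher than at day 2, which is 27.4% of those tested, and 481 were lower, which is 3.79% (limma, adjusted p under 0.05). Changes in either direction covered 31.2% of the genes. Of the calls, 937 genes (7.38%) were higher by at least 2-fold and 88 (0.693%) lower by at least 2-fold, counted in log2(TPM + 1), a scale on which low genes change less than in TPM. In 5236 genes, or 41.3%, the 3 values of one day lay all above the 3 of the other, with day 14 on the higher side in 4460 and on the lower side in 776. Where the days of a single gene are said below not to overlap, that is read against this 41.3%. For the 12 largest rises and the 12 largest falls the naming rule required days without overlap. The median log2 fold change of all 12693 genes was 0.25, with quartiles at -0.01 and 0.53, so the mass of genes stood slightly above its day 2 level in TPM. After scaling by the median of ratios, which sets the typical gene equal between samples, that median was -0.01 and 1585 genes (12.5%) were higher and 1487 (11.7%) lower. The share of calls on the higher side was 87.8% in TPM, 51.6% under that scaling and 43.7% under quantile normalization. Each list of genes below is therefore given with its counts in both scales, those under median-of-ratios scaling in parentheses. They are read against 27.4% higher and 3.79% lower over all genes, or 12.5% and 11.7% under that scaling.

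Values that differ between the libraries stand beside this shift. A row named Mir6236 took 14.6%, 13.2% and 22.5% of all TPM at day 2 and 13.7%, 11.04% and 11.8% at day 14, and without day 2 replicate 3 the calls numbered 2391 higher and 453 lower. Per library, 1 TPM or more was reached by 12060 ± 26.1 rows at day 2 and by 12673 ± 67.5 at day 14 (SD, n = 3), with no overlap (exact permutation test, two-sided, p = 0.1, the smallest that 3 against 3 allows). The median within-day SD of a gene, in log2(TPM + 1), was 0.21 at day 2, 0.18 at day 14 and 0.12 at day 0. All 3 days entered the spread behind each p-value, so that spread drew in part on the tighter day 0. With the 6 samples of day 2 and day 14 alone, the calls numbered 2325 higher and 291 lower. With Mir6236 and all other rows of short or ribosomal RNAs left out and TPM scaled anew, 3087 genes were higher and 714 lower. The median log2 fold change of all genes was then 0.19, beside 0.25 with these rows. Mir6236 was not left out on its own. The depth of the libraries is unknown, since TPM hold no read totals, and the part that depth had in the shift was not tested. Of the labelled origin, the 10 ductal markers were all tested, with a summed level of 5719 to 8122 TPM at day 2 and 6848 to 8881 TPM at day 14, and Krt7, the keratin 7 gene, at 454 to 475 TPM at day 2 and 457 to 574 TPM at day 14. Epcam, another of them, stayed under 1 TPM in all 3 samples of day 2, and Cftr stood between 0.488 and 3.55 TPM over the 6 samples. Of 10 fibroblast, 8 lymphocyte and 10 islet markers in the table, 0 passed the filter, and Ptprc, which marks all leukocytes, stood at 0.09 to 0.52 TPM. In bulk RNA, fewer cells of a kind and less RNA per cell cannot be told apart.

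**Figure D1:**
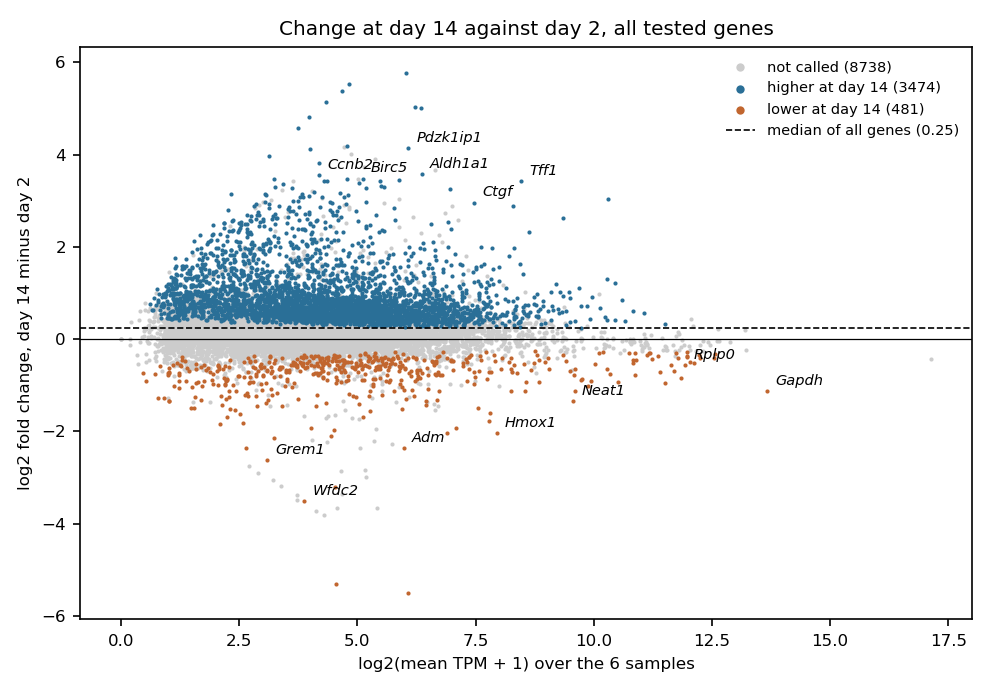
Log2 fold change at day 14 against day 2 (vertical axis) by log2 of the mean TPM + 1 over the 6 samples (horizontal axis), 1 point per tested gene, blue for the 3474 higher and orange for the 481 lower. The dashed line marks the median of 0.25, above which most of the called genes lie.

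Genes of mitosis had the largest median change of all lists tested. Of 36 tested, 35 were higher and 0 lower (limma), under both scalings, against 27.4% of all genes, and their median log2 fold change was 2.91 (2.66 under median-of-ratios scaling) beside 0.25 for all genes. The remaining member was Pttg1, which codes for securin, at a log2 fold change of 0.16. The median level of the list, as log2(TPM + 1), was 2.27, 2.59 and 2.59 in the day 2 samples and 5.45, 5.03 and 5.50 in the day 14 samples, beside 6.40, 6.44 and 6.57 at day 0. Every day 14 sample was thus above every day 2 sample and below every day 0 sample.

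Ccnb2, the gene of cyclin B2, which partners CDK1 at entry into mitosis, had 1.02, 1.94 and 2.73 TPM at day 2 and 41.3, 25.5 and 31.1 TPM at day 14 (log2 fold change 3.55, SE 0.24, limma adjusted p = 1.57e-05). Its day 0 level was 83.6 ± 7.82 TPM. Birc5, the survivin gene, whose product sits in the chromosomal passenger complex, had 3.52, 6.03 and 4.64 TPM at day 2 and 60.8, 54.6 and 71.8 TPM at day 14 (log2 fold change 3.48, SE 0.17, limma adjusted p = 8.81e-06). Top2a codes for the topoisomerase that untangles sister chromatids. It had 6.48, 10.8 and 9.67 TPM at day 2 and 115, 92.04 and 116 TPM at day 14 (log2 fold change 3.46, SE 0.19, limma adjusted p = 9.71e-06). For Ccna2, the cyclin A2 gene, the values were 1.61, 3.09 and 2.83 TPM at day 2 and 37.96, 31.2 and 39.9 TPM at day 14 (log2 fold change 3.43, SE 0.19, limma adjusted p = 9.71e-06). Cep55, which directs the final cut between daughter cells, had 3.05, 4.28 and 3.22 TPM at day 2 and 48.5, 41.96 and 57.9 TPM at day 14 (log2 fold change 3.48, SE 0.16, limma adjusted p = 7.96e-06). All 5 of these genes belonged to the 12 largest rises among genes of at least 10 TPM, a choice that required days without overlap.

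The promoters of this list share letters that the choice of members did not use. The CHR was searched as TTTGAA and TTCGAA on both strands of the 300 bases around each start site in the RefSeq promoter table (GRCm38.p6), and 75.8% of 33 promoters of 31 mitosis genes held it, against 14.0% of the 12628 promoters of tested genes and 19.2% of the 32851 promoters in the table. CCAAT, on either strand, was in 75.8% of the list, 38.2% of promoters of tested genes and 37.4% of the table. Genes called higher by at least 2-fold held the CHR in 24.8% of their promoters and genes called lower by at least 2-fold in 10.98%. A match is a string of letters and not a measured site. For 3 mitosis genes the 250 bases before the start site are shown, 5′ to 3′ on the gene's strand. The CHR and CCAAT letters are in capitals in either orientation. These genes had the largest rises among called members with a CHR within those 250 bases, with genes of 1 chromosome passed over in the choice. The stretches were taken from RefSeq at chr9:70421555-70421804 (Ccnb2), chr11:99024190-99024439 (Top2a) and chr4:118437344-118437593 (Cdc20), all 3 on the minus strand.
Ccnb2: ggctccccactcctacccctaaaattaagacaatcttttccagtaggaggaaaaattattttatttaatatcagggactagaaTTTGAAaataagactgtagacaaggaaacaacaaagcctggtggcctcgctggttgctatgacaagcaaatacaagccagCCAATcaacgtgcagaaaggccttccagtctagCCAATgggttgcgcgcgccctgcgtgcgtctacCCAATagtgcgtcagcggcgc
Top2a: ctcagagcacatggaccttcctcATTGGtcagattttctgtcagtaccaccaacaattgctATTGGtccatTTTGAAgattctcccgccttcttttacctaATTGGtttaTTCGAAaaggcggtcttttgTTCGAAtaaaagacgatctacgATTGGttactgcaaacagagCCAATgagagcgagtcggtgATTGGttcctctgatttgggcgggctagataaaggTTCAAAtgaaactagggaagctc
Cdc20: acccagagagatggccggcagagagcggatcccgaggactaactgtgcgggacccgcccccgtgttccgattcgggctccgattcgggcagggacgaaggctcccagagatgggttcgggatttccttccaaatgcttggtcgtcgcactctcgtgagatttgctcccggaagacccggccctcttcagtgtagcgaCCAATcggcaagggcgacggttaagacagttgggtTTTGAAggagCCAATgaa
The Ccnb2 stretch holds 1 CHR and 3 CCAAT letters, that of Top2a 4 and 6, and that of Cdc20, the gene of an activator of the anaphase-promoting complex, 1 and 2. Nothing in the expression data tells which of these letters were bound.

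**Figure D2:**
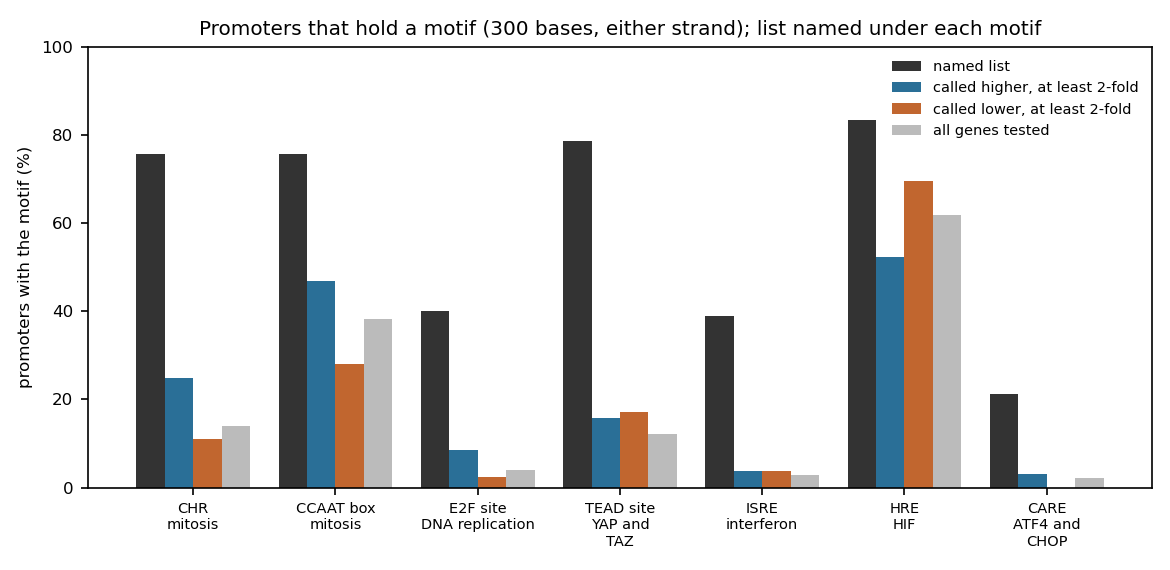
Percent of promoters (vertical axis, from 0) that hold each motif on either strand, for the list named under the motif (black), for genes called higher or lower by at least 2-fold (blue, orange) and for all tested genes (grey). The mitosis list stands at 75.8% for the CHR beside 14.0% of promoters of tested genes.

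All 38 tested genes of DNA replication were higher, 36 of them also under median-of-ratios scaling and 0 lower in either, with a median log2 fold change of 1.55 (1.28). The list's level was 3.64, 3.40 and 3.39 at day 2 and 5.15, 4.91 and 4.96 at day 14 as a median log2(TPM + 1). Mcm5, a subunit of the helicase that opens origins, had 4.202, 5.297 and 4.34 TPM at day 2 and 50.7, 41.7 and 46.7 TPM at day 14 (log2 fold change 3.08, SE 0.12, limma adjusted p = 5.88e-06). Tk1, the thymidine kinase of the S phase salvage route, had 9.76, 9.104 and 11.4 TPM at day 2 and 56.03, 75.9 and 82.8 TPM at day 14 (log2 fold change 2.70, SE 0.16, limma adjusted p = 1.04e-05). E2F sites, searched as TTTCGCGC, TTTGGCGC, TTTCCCGC and TTTGCCGC on both strands, were in 40% of the list's 35 promoters, in 4.0% of those of tested genes and in 2.3% of the table. The stretch before the Mcm5 start, chr8:75109259-75109508 on the plus strand, is shown because this gene rose most in the list, a choice made after its value was seen. Its E2F letters, 1 match on each strand that overlap in part, are in capitals.
Mcm5: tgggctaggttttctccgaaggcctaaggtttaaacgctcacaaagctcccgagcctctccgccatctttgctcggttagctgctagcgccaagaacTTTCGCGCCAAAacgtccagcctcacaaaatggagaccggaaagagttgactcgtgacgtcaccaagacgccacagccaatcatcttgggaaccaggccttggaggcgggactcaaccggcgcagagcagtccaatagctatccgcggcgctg

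Of 17 tested transcription factors of the cell cycle, 12 were higher and 0 lower (11 and 0 under median-of-ratios scaling). E2f8, a repressor of the E2F family that is itself made in S phase, had 0.408, 0.458 and 0.563 TPM at day 2 and 8.09, 7.35 and 7.87 TPM at day 14 (log2 fold change 2.57, SE 0.16, limma adjusted p = 1.26e-05). Foxm1, an activator of mitosis genes, had 4.01, 6.72 and 5.33 TPM at day 2 and 33.4, 27.5 and 36.5 TPM at day 14 (log2 fold change 2.41, SE 0.17, limma adjusted p = 2.21e-05). The retinoblastoma gene Rb1 had a log2 fold change of -0.19 and Rbl2, the p130 gene of the DREAM complex, one of 0.04, neither of them called.

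Among the 9 tested cyclins and kinases of G1, 7 were higher and 0 lower (5 and 0). Ccnd1, the cyclin D1 gene, which answers to growth factors and adhesion, had 79.6, 183 and 137 TPM at day 2 and 359, 437 and 562 TPM at day 14 (log2 fold change 1.81, SE 0.28, limma adjusted p = 0.00157), beside 551 ± 56.8 TPM at day 0. Ccne1, the cyclin E1 gene, had 1.46, 2.31 and 1.44 TPM at day 2 and 4.66, 11.5 and 12.6 TPM at day 14 (log2 fold change 1.86, SE 0.32, limma adjusted p = 0.00276). Cdk4 stood at 280.1 to 377 TPM at day 2 and 303 to 329.6 TPM at day 14 and was not called.

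The CDK inhibitors moved mostly the other way: 4 of 7 were lower and 1 higher, under both scalings, against 3.79% lower over all genes. Cdkn2a, which codes for p16 and p19Arf, had 976, 1160.4 and 1025 TPM at day 2 and 405, 451 and 615 TPM at day 14 (log2 fold change -1.12, SE 0.16, limma adjusted p = 0.00112). The p15 gene Cdkn2b went from a range of 205 to 256 TPM to one of 130.5 to 161 TPM, and the p27 gene Cdkn1b from a range of 117 to 154 TPM to one of 71.6 to 79.4 TPM, with log2 fold changes of -0.70 and -0.75 (limma, adjusted p = 0.0104 and 0.00174). Cdkn1a, the p21 gene, had 74.5, 47.8 and 58.7 TPM at day 2 and 39.98, 30.02 and 42.4 TPM at day 14 (log2 fold change -0.66, SE 0.19, limma adjusted p = 0.02605). Its call was lost without day 2 replicate 1, day 2 replicate 3 or day 14 replicate 2, at adjusted p = 0.0757, 0.0662 and 0.0855. The fit of the 6 samples alone lost it too (limma adjusted p = 0.0581). Cdkn2c, the p18 gene, rose from a range of 10.3 to 13.3 TPM to one of 25.8 to 28.03 TPM. At day 0, Cdkn1a was at 4.75 ± 0.624 TPM, below all day 14 samples, and Cdkn2a at 441 ± 52.7 TPM, within their range.

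Replication-dependent histones, made in S phase and without a poly(A) tail, gave 15 higher and 1 lower of 52 tested (10 and 1), with a median log2 fold change of 0.71 (0.53). In TPM the share of higher genes was near the 27.4% over all genes, so the histone values below are those of single genes. Hist1h2bj had 0, 0.893 and 1.02 TPM at day 2 and 17.7, 21.4 and 48.3 TPM at day 14 (log2 fold change 4.13, SE 0.46, limma adjusted p = 0.000279), and Hist1h3c was listed at 0 in all day 2 samples and at 6.82, 6.52 and 10.8 TPM at day 14. Hist1h1c, a linker histone gene, fell from a range of 118 to 171 TPM to one of 50.1 to 67.02 TPM (log2 fold change -1.31, SE 0.19, limma adjusted p = 0.00122). Histone genes are near-identical copies, so reads may have been split between them. Enzymes of nucleotide synthesis were higher in 13 of 19 cases and lower in 1 (8 and 2), led by Ctps, the CTP synthase gene, at 20.5 to 36.1 TPM at day 2 and 57.4 to 98.9 TPM at day 14 (log2 fold change 1.57), while Impdh1 fell from a range of 59.5 to 92.8 TPM to one of 37.3 to 48.7 TPM (log2 fold change -0.69). Dnmt1 and Uhrf1, which copy DNA methylation onto new strands, rose by 1.48 and 2.65 on the log2 scale.

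**Figure D3:**
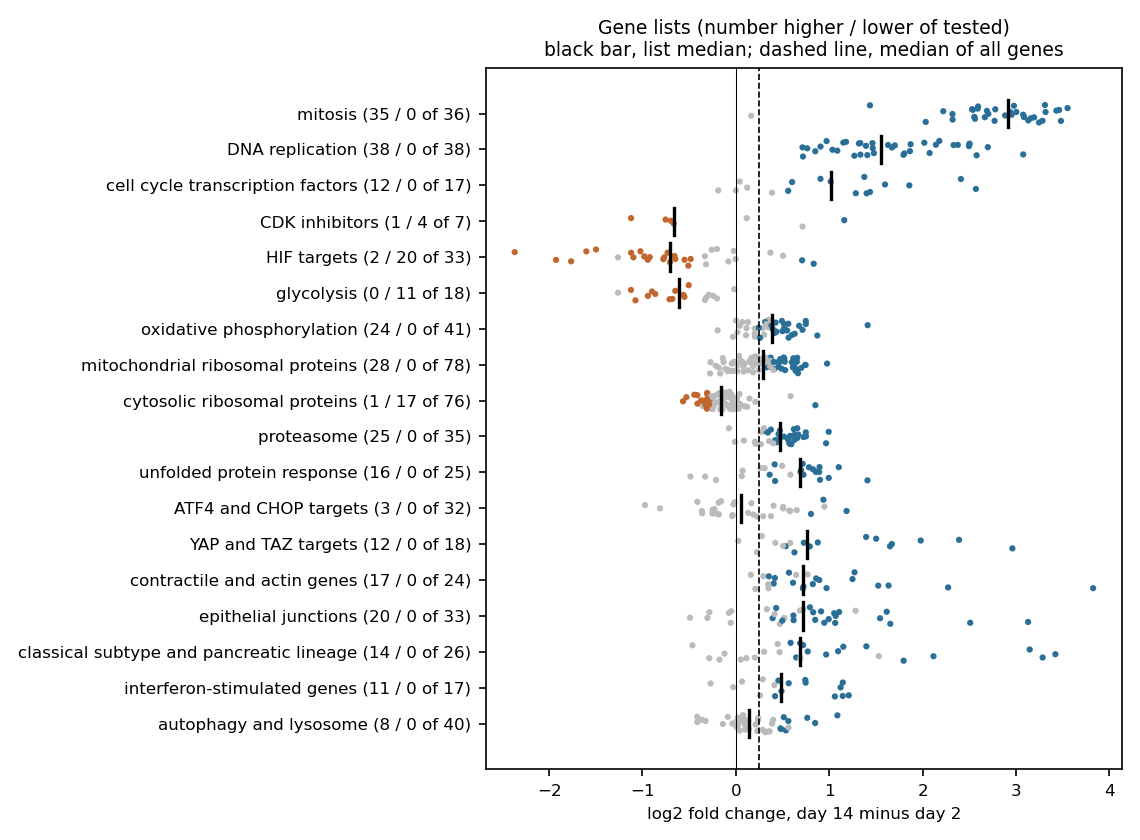
Log2 fold change at day 14 against day 2 (horizontal axis) of each tested member of 18 lists (vertical axis), blue for called higher, orange for called lower and grey for not called, with the list median as a black bar. The medians of mitosis and DNA replication lie to the right of the dashed median of all genes (0.25), and those of HIF targets and glycolysis to its left.

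Most HIF targets fell. Of 33 tested, 20 were lower and 2 higher in TPM, against 3.79% lower over all genes, and 22 and 0 under median-of-ratios scaling, against 11.7%. The median log2 fold change was -0.71 (-0.99). The list's median log2(TPM + 1) was 7.23, 6.97 and 6.87 at day 2 and 6.54, 6.10 and 6.30 at day 14, beside 4.07, 3.42 and 3.49 at day 0, so the day 14 samples lay below all day 2 samples and above all day 0 samples.

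Hilpda, which codes for a lipid droplet protein that blocks fat breakdown, had 484, 256 and 284 TPM at day 2 and 111, 68.4 and 116 TPM at day 14 (log2 fold change -1.76, SE 0.26, limma adjusted p = 0.00131). Selenbp1, a methanethiol oxidase gene, had 259.8, 125 and 255 TPM at day 2 and 72.6, 66.1 and 30.2 TPM at day 14 (log2 fold change -1.93, SE 0.36, limma adjusted p = 0.00444). Bnip3, a mitophagy receptor gene, had 629.8, 651 and 529.6 TPM at day 2 and 326, 300.03 and 325 TPM at day 14 (log2 fold change -0.92, SE 0.19, limma adjusted p = 0.00709). These 3 genes kept the days apart in every sample, as did 41.3% of all genes. For Hilpda and Selenbp1, named among the 12 largest falls, the naming rule required it. Adm, the adrenomedullin gene, had the largest fall of the list but wide spread, with 202, 66.2 and 40.6 TPM at day 2 and 45.1, 5.69 and 12.4 TPM at day 14 and overlapping days (log2 fold change -2.37, SE 0.71, limma adjusted p = 0.0331). Its call was lost without day 2 replicate 1, day 14 replicate 2 or day 14 replicate 3, at adjusted p = 0.0946, 0.101 and 0.0859. The fit of the 6 samples alone (limma adjusted p = 0.0743), robust variances (0.0749) and no filter on low values (0.0606) lost it too. In the other direction, Car9, a carbonic anhydrase of the cell surface that exports acid, had 36.6, 28.7 and 34.05 TPM at day 2 and 55.8, 66.2 and 57.1 TPM at day 14 (log2 fold change 0.83, SE 0.20, limma adjusted p = 0.0145). The Car9 call was lost under median-of-ratios scaling, at adjusted p = 0.0967, and without day 14 replicate 2, at 0.0512. The other member called higher in TPM, Car12, was not called under that scaling either. The hypoxia response element, searched as ACGTG and GCGTG on both strands and overlapping the E-box CACGTG, was in 83.3% of the list's 42 promoters. It was in 62.0% of those of tested genes and in 71.1% of those of genes called lower. Glycolysis, which fell, stood at 75.9%, and mitosis and epithelial junctions, which rose, at 75.8% and 76%. DNA replication, YAP and TAZ targets and interferon-stimulated genes stood at 60%, 50% and 44.4%. The HIF list is one of known targets, so its share describes that choice.

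Egln1, which codes for the prolyl hydroxylase PHD2 that marks HIF for destruction and is itself a HIF target, had 242, 236 and 226 TPM at day 2 and 122, 108 and 126 TPM at day 14 (log2 fold change -0.98, SE 0.09, limma adjusted p = 0.000124). Hif1a was at 37.8 to 52.2 TPM at day 2 and 32.5 to 38.04 TPM at day 14 and was not called. Of 8 tested subunits and sensors 2 were lower and 1 higher (4 lower and 0 higher), and of 22 JmjC and TET demethylases, which use oxygen, 5 were lower and 2 higher (8 and 0).

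Most glycolytic genes fell as well: 11 of 18 tested genes were lower and 0 higher (15 and 0 under median-of-ratios scaling), with a median log2 fold change of -0.60 (-0.89). The list's median log2(TPM + 1) was 9.59, 9.11 and 9.34 at day 2, 8.72, 8.71 and 8.43 at day 14 and 7.33, 7.08 and 7.01 at day 0. Gapdh, the most abundant gene called in either direction, had 19120.2, 16970.3 and 17038 TPM at day 2 and 7622, 8419.6 and 8341 TPM at day 14 (log2 fold change -1.12, SE 0.10, limma adjusted p = 7.25e-05), beside 8689 ± 807 TPM at day 0. Pfkp, the platelet form of phosphofructokinase, had 136, 106 and 118 TPM at day 2 and 57.5, 63.7 and 48.7 TPM at day 14 (log2 fold change -1.07, SE 0.17, limma adjusted p = 0.00172). Eno1, the enolase 1 gene, had 4482 to 5474 TPM at day 2 and 2997 to 3755 TPM at day 14 and a log2 fold change of -0.50. Under quantile normalization it was not called, at adjusted p = 0.108. With the 20 most abundant rows left out and TPM scaled anew, the median log2 fold change of all genes was 0.14 in place of 0.25.

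Nuclear genes of oxidative phosphorylation were higher in 24 of 41 cases and lower in 0, with a median of 0.38, but in 5 and 1 cases with a median of 0.10 under median-of-ratios scaling. Cycs, the cytochrome c gene, had 21.01, 38.4 and 26.1 TPM at day 2 and 58.2, 79.4 and 92.1 TPM at day 14 (log2 fold change 1.41, SE 0.22, limma adjusted p = 0.00186). Ndufa5, a complex I subunit gene, had 85.99, 84.2 and 89.3 TPM at day 2 and 145, 189 and 147 TPM at day 14 (log2 fold change 0.87, SE 0.11, limma adjusted p = 0.000734). Both were called under that scaling as well. Mitochondrial ribosomal proteins gave 28 higher and 0 lower of 78 in TPM and 7 and 8 under the scaling, and the TCA cycle 10 and 1 of 27 against 0 and 1.

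Genes of the cytosolic ribosome had 17 lower and 1 higher of 76, with a median of -0.15. Median-of-ratios scaling gave 53 lower and 0 higher with a median of -0.44, and quantile normalization 13 and 2 with a median of -0.03. Rplp0, of the ribosomal stalk, had 4875, 4836 and 4324 TPM at day 2 and 3122, 3263 and 3086 TPM at day 14 (log2 fold change -0.57, SE 0.09, limma adjusted p = 0.00189). Rpl5, which binds 5S RNA, had 1257, 1221 and 1205 TPM at day 2 and 832, 900.3 and 820.3 TPM at day 14 (log2 fold change -0.53, SE 0.08, limma adjusted p = 0.00112). Rps29 was the 1 member called higher, at 844 to 1229 TPM at day 2 and 1333 to 2564 TPM at day 14, a call lost under median-of-ratios scaling (adjusted p = 0.122) and without day 2 replicate 3 (0.103), day 14 replicate 2 (0.0899) or day 14 replicate 3 (0.0811). Ribosome biogenesis, which builds these particles, gave 14 higher and 1 lower of 32 (5 and 3). Nop56, of the box C/D snoRNP, had 60.2 to 98.7 TPM at day 2 and 112 to 175 TPM at day 14 and a log2 fold change of 0.97. The 1 member called lower, the nucleophosmin gene Npm1, went from a range of 1495 to 1829 TPM to one of 943 to 989.8 TPM, with a log2 fold change of -0.75.

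In lipid metabolism, cholesterol synthesis gave 4 higher and 0 lower of 24 (0 and 1 under median-of-ratios scaling), fatty acid synthesis 3 and 1 of 16 (0 and 3) and fatty acid oxidation 1 and 0 of 23 (0 and 4), shares of higher genes below the 27.4% over all genes. Lipid droplet genes gave 3 higher and 2 lower of 11 (2 and 2). Scd2, a stearoyl-CoA desaturase gene, was the called fall among the synthesis genes, with 967, 959.8 and 995 TPM at day 2 and 527, 594 and 576 TPM at day 14 (log2 fold change -0.78, SE 0.17, limma adjusted p = 0.00948), beside 349 ± 105 TPM at day 0.

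**Figure D4:**
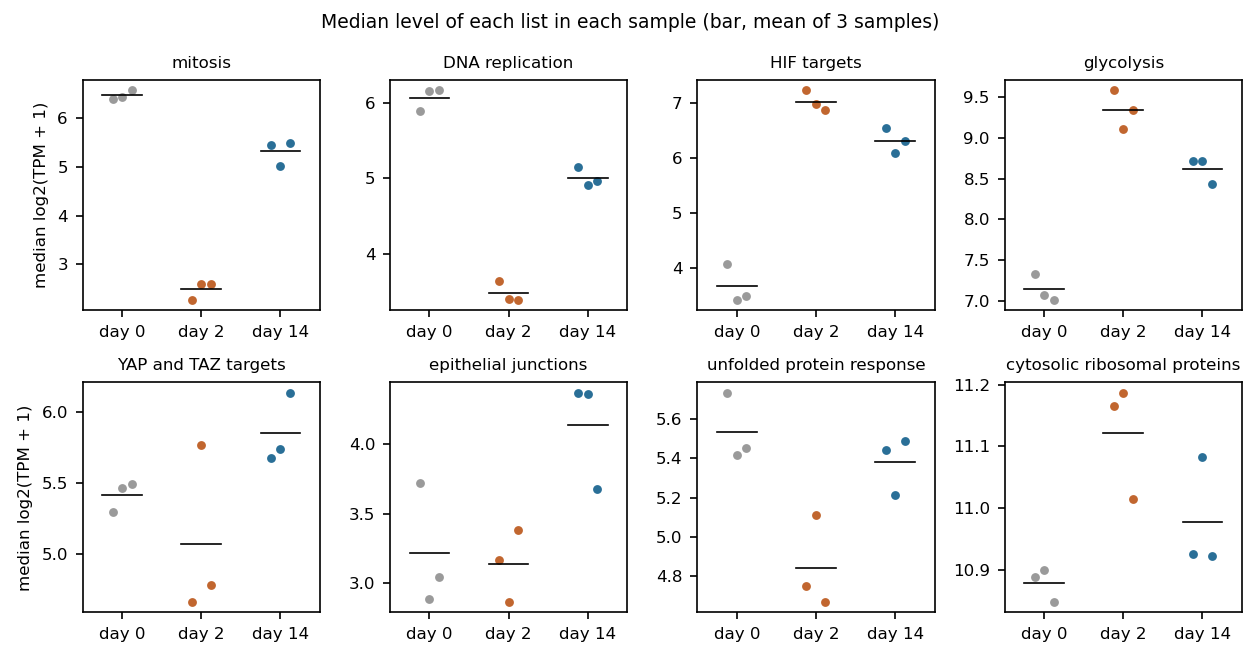
Median log2(TPM + 1) over the tested members of 8 lists (vertical axis) in each sample of day 0, day 2 and day 14 (horizontal axis, 1 point per sample, bar at the mean of 3). Mitosis, DNA replication, HIF targets and glycolysis stand at day 14 between their levels of day 2 and day 0, and day 2 replicate 2 stands apart among the YAP and TAZ targets.

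Of 32 tested targets of ATF4 and CHOP, 3 were higher and 0 lower in TPM, and 1 and 5 under median-of-ratios scaling, with a median log2 fold change of 0.06 (-0.22) beside the 0.25 (-0.01) of all genes. Without day 2 replicate 1 the list's median was -0.18, and without day 14 replicate 3 it was -0.07. Nupr1, a chromatin-binding stress gene, was the member called higher under both, with 318, 404 and 358 TPM at day 2 and 929.6, 686 and 854 TPM at day 14 (log2 fold change 1.19, SE 0.19, limma adjusted p = 0.00179), beside 53.9 ± 13.8 TPM at day 0. Atf3, a repressor of the same family, had 15.8 to 27.7 TPM at day 2 and 34.1 to 46.3 TPM at day 14. Ppp1r15a, the GADD34 gene, which reverses the block of translation, had 49.5 to 68.2 TPM at day 2 and 78.6 to 146 TPM at day 14. Both calls were lost under that scaling (adjusted p = 0.0748 and 0.0927). They were also lost without day 2 replicate 1 (0.0594 and 0.05699) or day 2 replicate 3 (0.0751 and 0.0797), and that of Atf3 without day 14 replicate 3 (0.0662). Asns, the asparagine synthetase gene, was not called, at 177 to 337 TPM at day 2 and 175 to 295 TPM at day 14. Trib3, a pseudokinase gene, was not called either, at 44.5 to 169 TPM at day 2 and 60.1 to 118 TPM at day 14. The CARE letters TGATGNAA, on either strand, were in 21.2% of the list's 33 promoters and in 2.3% of those of tested genes. Members are known targets, so that share describes their choice and is no result of these data. Of 18 FOXO targets, active when insulin-like signals are low, 2 were lower and 1 higher (7 and 0).

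Genes of the unfolded protein response and chaperones of the endoplasmic reticulum were higher in 16 of 25 cases and lower in 0 (11 and 1), with a median of 0.69 (0.41). Calr, the calreticulin gene, had 216, 199.9 and 177 TPM at day 2 and 643, 482 and 465 TPM at day 14 (log2 fold change 1.41, SE 0.14, limma adjusted p = 0.000173). Dnajb11, a partner of the chaperone BiP, had 19.7, 21.6 and 20.7 TPM at day 2 and 42.6, 47.5 and 46.6 TPM at day 14 (log2 fold change 1.10, SE 0.09, limma adjusted p = 4.93e-05). For comparison, the day 0 means were 601 ± 62.1 TPM and 79.3 ± 2.43 TPM, so the day 2 samples held the lowest values of both. Ern1, which codes for the sensor IRE1, and Xbp1, whose RNA IRE1 splices, were not called, at log2 fold changes of -0.49 and -0.21. The difference between this list and the ATF4 and CHOP targets was not tested.

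Cytosolic chaperones went both ways, with 8 higher and 2 lower of 18 (6 and 2). Cryab, the small heat shock gene of αB-crystallin, had 3.33, 3.95 and 3.098 TPM at day 2 and 21.9, 12.8 and 37.9 TPM at day 14 (log2 fold change 2.38, SE 0.33, limma adjusted p = 0.000946). Hspb1, another small heat shock gene, had 70.4, 32.7 and 43.01 TPM at day 2 and 242, 188 and 145 TPM at day 14 (log2 fold change 2.00, SE 0.31, limma adjusted p = 0.00161). Neither overlapped between the days. Hspa8, the constitutive HSP70 gene, fell from a range of 1912 to 2276 TPM to one of 1330.4 to 1731 TPM (log2 fold change -0.51). Proteasome subunits gave 25 higher and 0 lower of 35, with a median of 0.47, and 11 and 2, with a median of 0.19, under median-of-ratios scaling. Psmb3, of the core particle, rose from a range of 114 to 136 TPM to one of 193 to 316 TPM. Psma1, of the same particle, rose from a range of 88.4 to 117 TPM to one of 179.7 to 217 TPM.

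Antioxidant genes under NRF2 gave 10 higher and 1 lower of 28 (7 and 3). In TPM these shares were near those of all genes (27.4% and 3.79%). Under median-of-ratios scaling the 7 higher were a larger share than the 12.5% over all genes, and the 3 lower a share near 11.7%. The values below are those of single genes. Gpx2, the glutathione peroxidase of epithelia, had 0.1903, 0.175 and 0.244 TPM at day 2 and 7.71, 7.46 and 6.97 TPM at day 14 (log2 fold change 2.80, SE 0.17, limma adjusted p = 1.11e-05). Gsta1, a glutathione transferase gene, had 35.02, 20.4 and 39.1 TPM at day 2 and 292, 255 and 82.04 TPM at day 14 (log2 fold change 2.55, SE 0.44, limma adjusted p = 0.00279). Hmox1, heme oxygenase 1, also a HIF target, moved against them, with 435, 471 and 278 TPM at day 2 and 102, 61.6 and 127 TPM at day 14 (log2 fold change -2.04, SE 0.31, limma adjusted p = 0.00149), beside 27.1 ± 8.36 TPM at day 0. All 3 genes had separate values in the days, which for Hmox1 the naming rule required. Of 20 tested p53 targets 8 were higher and 0 lower, and 5 and 3 under median-of-ratios scaling.

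Targets of YAP and TAZ, coactivators that answer to cell shape, contact and stiffness through TEAD factors, were higher in 12 of 18 cases and lower in 0 (9 and 0), with a median of 0.76 (0.49). Ctgf, a secreted matrix protein gene and a standard readout of the pathway, had 27.8, 51.97 and 39.3 TPM at day 2 and 247, 353 and 330.2 TPM at day 14 (log2 fold change 2.96, SE 0.23, limma adjusted p = 3.42e-05), beside 173 ± 28.4 TPM at day 0. Cyr61, its relative, had 43.8, 57.9 and 20.98 TPM at day 2 and 176, 166 and 281 TPM at day 14 (log2 fold change 2.39, SE 0.34, limma adjusted p = 0.00115), beside 160.2 ± 27.5 TPM. The days did not overlap for either gene. The list's median log2(TPM + 1) did overlap: it was 4.66, 5.77 and 4.78 at day 2 and 5.68, 5.74 and 6.13 at day 14. The TEAD letters GGAATG, on either strand, were in 78.6% of 14 promoters of 12 list members, in 12.2% of promoters of tested genes and in 14.7% of the table. Since the list is one of known targets, that share describes its choice and is no result of these data. The Cyr61 stretch, listed by RefSeq as Ccn1 at chr3:145649986-145650235 on the minus strand, is shown with its TEAD letters in capitals, as one of the largest rises of the list, chosen after values were seen.
Cyr61: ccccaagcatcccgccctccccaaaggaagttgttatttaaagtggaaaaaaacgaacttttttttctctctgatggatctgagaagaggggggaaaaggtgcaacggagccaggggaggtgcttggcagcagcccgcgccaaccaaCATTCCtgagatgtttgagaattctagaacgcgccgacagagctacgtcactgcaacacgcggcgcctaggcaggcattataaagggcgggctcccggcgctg
The capitals give the TEAD letters as read on the opposite strand.

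Genes of contractile actin bundles, several of them targets of SRF and its MRTF cofactors, were higher in 17 of 24 cases and lower in 0 (11 and 0), with a median of 0.72 (0.47). Myl9, a regulatory light chain of nonmuscle and smooth muscle myosin, had 1.3996, 1.38 and 0.2398 TPM at day 2 and 8.15, 43.6 and 48.4 TPM at day 14 (log2 fold change 3.83, SE 0.68, limma adjusted p = 0.00349). Day 14 replicate 1 stood well below the other day 14 samples and above all of day 2. Acta1, the skeletal actin gene, had 0.1896, 0.116 and 0.325 TPM at day 2 and 1.93, 8.35 and 6.26 TPM at day 14 (log2 fold change 2.27, SE 0.45, limma adjusted p = 0.00541). Fibroblast markers summed to 1.03 to 3.12 TPM at day 2 and 1.14 to 2.50 TPM at day 14, and adipocyte and muscle markers, 2 of 10 of them tested, to 8.91 to 10.6 TPM and 21.2 to 25.5 TPM. The 2 tested of the latter were Acta1, given above, and Cidec, a lipid droplet gene. The sum of the adipocyte and muscle markers thus holds a gene already named here. The part of the other markers in these results was not tested. Thbs1, the gene of the matrix protein thrombospondin 1, had 7.13, 12.8 and 10.002 TPM at day 2 and 24.2, 35.2 and 114 TPM at day 14 (log2 fold change 2.14, SE 0.49, limma adjusted p = 0.0108). Timp3, a metalloprotease inhibitor gene, had 17.9 to 43.2 TPM at day 2 and 78.8 to 139 TPM at day 14 (log2 fold change 2.00). Itgb6, the β6 integrin gene of epithelia, had 0.441 to 0.458 TPM at day 2 and 6.32 to 10.2 TPM at day 14 (log2 fold change 2.59).

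Epithelial junction genes were higher in 20 of 33 cases and lower in 0 (12 and 2), with a median of 0.72 (0.46). The list's level, as a median log2(TPM + 1), lay between 2.87 and 3.38 at day 2 and between 3.67 and 4.36 at day 14. Epcam, an adhesion molecule of simple epithelia, had 0.429, 0.672 and 0.957 TPM at day 2 and 10.9, 19.8 and 11.8 TPM at day 14 (log2 fold change 3.13, SE 0.25, limma adjusted p = 3.64e-05), beside 2.23 ± 0.638 TPM at day 0. St14, the matriptase gene, had 0.227, 0.171 and 0.672 TPM at day 2 and 6.65, 7.96 and 5.48 TPM at day 14 (log2 fold change 2.51, SE 0.19, limma adjusted p = 2.68e-05), beside 0.726 ± 0.139 TPM. Both were above day 0 as well as day 2 in all day 14 samples. Markers of the mesenchymal state went both ways, 3 higher and 2 lower of 18 (1 and 3). Sparc, a secreted matricellular protein gene, fell from a range of 7.26 to 8.697 TPM to one of 2.06 to 3.41 TPM. Cd44, the hyaluronan receptor gene, rose from a range of 43.4 to 72.6 TPM to one of 86.1 to 138 TPM.

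Of the gastric and classical pancreatic programme 14 of 26 tested genes rose and 0 fell (8 and 1), against 27.4% higher over all genes, with a median of 0.69 (0.41). The list's median log2(TPM + 1) overlapped between the days, at 5.10, 4.52 and 4.75 at day 2 and 5.91, 5.18 and 5.06 at day 14. Tff1, a trefoil peptide of mucous cells, had 37.04, 47.3 and 85.9 TPM at day 2 and 1105, 407 and 435 TPM at day 14 (log2 fold change 3.42, SE 0.43, limma adjusted p = 0.000596), beside 524 ± 189.9 TPM at day 0. Tff2 had 1.45, 0 and 0.621 TPM at day 2 and 38.2, 24.1 and 2.75 TPM at day 14 (log2 fold change 3.29, SE 0.75, limma adjusted p = 0.0108). Day 14 replicate 3 held the lowest of the day 14 values, still above day 2. The lineage factors Gata6, Hnf4a and Foxa2 had log2 fold changes of 0.05, 0.30 and -0.46 and were not called. Of 6 tested basal-like genes 3 were higher (2), among them Lamb3, the laminin β3 chain gene, which rose from a range of 24.1 to 30.3 TPM to one of 48.3 to 60.01 TPM.

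Other genes of the largest rises and falls belong to no list or to small ones. Pdzk1ip1, a membrane-bound PDZ partner protein gene, had the largest rise among genes of at least 10 TPM other than short RNAs, with 7.82, 3.35 and 6.12 TPM at day 2 and 152, 174 and 55.4 TPM at day 14 (log2 fold change 4.14, SE 0.41, limma adjusted p = 0.000138). Aldh1a1, the retinaldehyde dehydrogenase often used to mark stem-like tumor cells, had 12.5, 7.68 and 15.7 TPM at day 2 and 167, 163 and 121 TPM at day 14 (log2 fold change 3.58, SE 0.23, limma adjusted p = 1.49e-05). The stem cell and ALDH list as a whole gave 7 higher and 0 lower of 19 (4 and 2). Sprr4, of the cornified envelope, was listed at 0 in all samples of day 2 and day 0 and at 16.4, 8.83 and 21.4 TPM at day 14. Phgr1, a gene of surface cells of the gut, rose from a range of 0 to 1.33 TPM to one of 12.3 to 23.2 TPM. Crisp1, a secreted cysteine-rich protein gene, rose from a range of 5.26 to 6.33 TPM to one of 45.5 to 126 TPM.

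Of the falls, Wfdc2, the HE4 gene of secretory epithelia, had 22.4, 25.1 and 30.5 TPM at day 2 and 1.07, 1.59 and 1.401 TPM at day 14 (log2 fold change -3.52, SE 0.14, limma adjusted p = 5.88e-06), beside 83.98 ± 4.65 TPM at day 0, so day 14 was the lowest of the days. Grem1, a secreted BMP antagonist, had 11.6, 19.3 and 10.1 TPM at day 2 and 1.77, 0.955 and 1.27 TPM at day 14 (log2 fold change -2.62, SE 0.24, limma adjusted p = 8.98e-05). Trf, the transferrin gene, had 45.9, 16.5 and 40.6 TPM at day 2 and 10.5, 6.21 and 4.36 TPM at day 14 (log2 fold change -2.09, SE 0.38, limma adjusted p = 0.00376). In these 3 genes every day 14 sample was below every day 2 sample, which the naming rule required. Acan, the aggrecan gene, fell from a range of 47.7 to 57.5 TPM to one of 12.2 to 18.3 TPM. Add2, the β-adducin gene, fell from a range of 29.1 to 44.6 TPM to one of 5.51 to 11.9 TPM. Ptpru, a receptor phosphatase gene, fell from a range of 15.9 to 39.9 TPM to one of 4.51 to 6.32 TPM. Stac, an adaptor of calcium channels, completed these falls, with a log2 fold change of -2.15. Prl2c4, of the prolactin family, had 27.2, 24.5 and 59.4 TPM at day 2 and 0.205, 1.19 and 20.3 TPM at day 14 (log2 fold change -3.20, SE 1.07, limma adjusted p = 0.0484). That call was lost under median-of-ratios scaling (adjusted p = 0.0507) and without any 1 of the libraries of the 2 days other than day 14 replicate 3, at adjusted p from 0.0681 to 0.147. Among further alternatives, the 6 samples alone (limma adjusted p = 0.0590), robust variances (0.109) and no filter on low values (0.0843) lost it too.

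**Figure D5:**
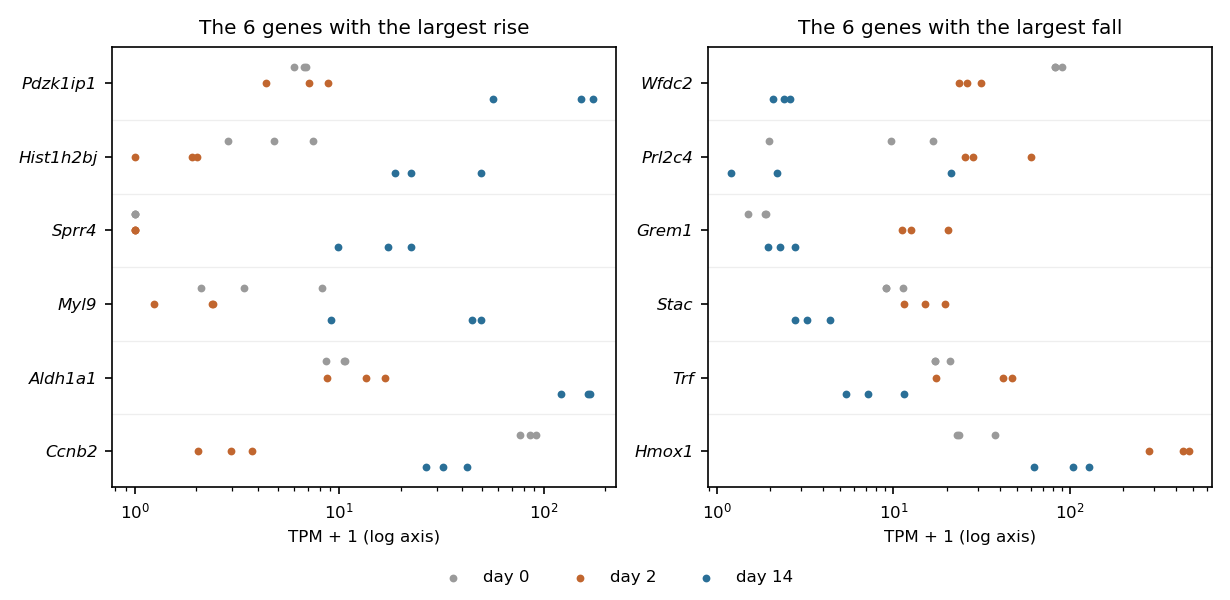
TPM + 1 on a log axis (horizontal) of the 6 genes with the largest rise (left) and the 6 with the largest fall (right) among those of at least 10 TPM that are no short RNAs in each of 3 samples of day 0 (grey), day 2 (orange) and day 14 (blue). The days 2 and 14 do not overlap in any of the 12 genes, which the naming rule required.

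In 214 genes all day 2 samples were under 1 TPM and all day 14 samples at or above it, and in 26 genes the reverse held. Over all genes the tilt in TPM was alike: 87.8% of calls were on the higher side. Among genes without overlap, 4460 were higher and 776 lower. The counts near the limit were not repeated under median-of-ratios scaling, and a gene at 1 TPM or more in the samples of 1 day alone passed the filter. With a floor of 5 TPM at day 14 there were 21, of which 5 were rows of short RNAs. The other 16 were Sprr4, Hist1h3c, Epcam, Cenpf, Psca, Gpx2, Knl1, Itgb6, E2f8, Espl1, Aspm, Neil3, St14, Tmem184a, Brip1 and Ticrr, named after their values were seen. Cenpf, Knl1, Espl1 and Aspm act at kinetochores, at cohesin or at the spindle, and Neil3, Brip1 and Ticrr in DNA repair or the start of replication. Psca, a surface antigen gene of gastric and prostate epithelium, had 0.641, 0.5904 and 0.659 TPM at day 2 and 12.96, 7.54 and 14.03 TPM at day 14. In the reverse direction 1 row, that of the microRNA Mir7237, met the same limit. Acinar markers, 1 of 10 of them tested, also summed to 1.08 to 2.81 TPM at day 2 and 4.49 to 6.98 TPM at day 14, and the part that depth had in such low values was not tested.

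Among genes read by immune cells, the interferon-stimulated genes gave 11 higher and 0 lower of 17 (6 and 1), against 27.4% higher over all genes, at low levels: Ifit2 had 0.778, 1.55 and 1.24 TPM at day 2 and 3.99, 3.39 and 4.73 TPM at day 14 (log2 fold change 1.21, SE 0.17, limma adjusted p = 0.000992). The interferon-stimulated response element was in 38.9% of the list's 18 promoters and in 2.8% of those of tested genes. Here too the members were chosen as genes that answer interferon, so the share is no result of these data. MHC class I genes gave 6 higher and 0 lower of 11 (3 and 0), with Tapbp, the tapasin gene, at 17.9 to 34.2 TPM at day 2 and 47.5 to 67.03 TPM at day 14 (log2 fold change 1.12). Of 19 chemokines and cytokines 4 were higher and 1 lower (3 and 3), a share of higher genes below that of all genes, so single genes are given. Ccl20, which attracts CCR6-bearing lymphocytes, had 4.37, 4.68 and 3.99 TPM at day 2 and 44.1, 35.6 and 29.9 TPM at day 14 (log2 fold change 2.80, SE 0.30, limma adjusted p = 0.000249). Il33, an alarmin gene, had 7.795, 9.29 and 13.6 TPM at day 2 and 72.1, 64.1 and 44.1 TPM at day 14 (log2 fold change 2.45, SE 0.22, limma adjusted p = 7.54e-05). Cxcl16, a membrane-bound chemokine gene, had 26.8, 12.1 and 12.4 TPM at day 2 and 70.1, 60.5 and 53.1 TPM at day 14 (log2 fold change 1.87, SE 0.27, limma adjusted p = 0.00115). All 3 kept the days apart. Of 10 macrophage and myeloid markers 4 were tested, and the 10 summed to 53.4 to 89.1 TPM at day 2 and 89.8 to 152 TPM at day 14. Csf1r rose from a range of 0.276 to 0.708 TPM to one of 2.31 to 5.197 TPM. Cd14 rose from a range of 24.8 to 55.8 TPM to one of 64.8 to 134 TPM. Mrc1 fell from a range of 24.7 to 30.4 TPM to one of 8.25 to 14.4 TPM, and the defining markers Adgre1, Lyz2 and Ptprc stayed under 1 TPM in all 6 samples. The part of these markers in the immune lists was not tested. Cd68, the fourth, was higher with 2.87 to 4.73 TPM at day 2 and 4.75 to 7.14 TPM at day 14, a call lost under median-of-ratios scaling (adjusted p = 0.198) and without replicate 1 (0.0739) or 2 (0.0778) of day 2, or 1 (0.0814) or 2 (0.09504) of day 14.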

How the data were processed

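RNA-seq of 9 samples, 3 per day, was deposited by the authors as 1 table of TPM per gene, estimated with Salmon per the submitters' processing notes. The sources used here do not give its version, index or genome build, so the coordinates printed are those of RefSeq promoters, on the RefSeq build, and not of the table's gene models. TPM were tested as log2(TPM + 1) with limma 3.58.1 (R 4.3.3): a mean per day over all 9 samples, the contrast of day 14 against day 2, moderated variances with a trend, and Benjamini-Hochberg adjustment over the 12693 genes that reached 1 TPM in 3 or more samples. Calls have an adjusted p under 0.05. The pipeline was tested on simulated data. Median-of-ratios factors, computed on TPM over all gene rows with a nonzero value in all 9 samples, were the main check on scale. Promoters (250 bases before to 50 after a start) came from RefSeq, GRCm38.p6, and 9977 tested genes matched by current or older symbol. Python 3.11.15, pandas 2.3.3 and matplotlib 3.10.9 served for tables and figures.

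Named genes were the 12 largest called rises and falls with non-overlapping days and 10 TPM or more as the mean of a day, per list up to 2 called members in the direction of its median and 1 opposite, all called members of small sets, and the 10 most abundant calls in each direction. A few of these genes are not reported here. The members and lists were chosen with earlier results of these data known. Medians by chromosome, planned, were not computed because the build of the table is not stated. Alternatives were other pseudocounts, filters, scalings, variance models, a replicate block, the 6 samples alone and each library left out.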

Additional observations from a re-analysis of the deposited data

How the results depend on the processing

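Of the 227 genes that the naming rule gave, 142 kept their call under every alternative that tested them and 0 changed direction. Median-of-ratios scaling gave 1585 genes higher and 1487 lower, with 596 and 194 past 2-fold. Its list medians were 2.66 for mitosis, 1.28 for DNA replication, -0.99 for HIF targets, -0.89 for glycolysis, 0.098 for oxidative phosphorylation, 0.41 for the unfolded protein response, 0.19 for the proteasome, -0.44 for the ribosome and 0.47 for contractile genes. Quantile normalization gave 1478 and 1902, with 554 and 254 past 2-fold, and 2.66, 1.30, -0.95 (HIF targets), 0.15, 0.45, 0.23, -0.034 and 0.48 for the same lists without glycolysis, and -0.98 for CDK inhibitors. Medians of 24 lists changed sign under the first and of 21 under the second, while 58 and 56 named genes lost their call. Leaving out the 20 most abundant rows gave 807 lower, 133 of them past 2-fold, and medians of 0.26 for oxidative phosphorylation and -0.28 for the ribosome.

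A pseudocount of 0.1 moved the medians of mitosis and DNA replication to 3.33 and 1.73. A pseudocount of 5 moved them to 2.11 and 1.23, that of contractile genes to 0.54, and the counts past 2-fold to 505 and 47. An adjusted p under 0.01 left 1749 and 186 calls, and a fit of the 6 samples alone gave 2325 higher and 291 lower. In that fit 49 of the 227 named genes lost their call, among them Cdkn1a, Adm, Prl2c4, Rps29, Ppp1r15a and Cd68. Leaving out each library in turn gave 2391 to 3861 higher and 327 to 463 lower. The deviations of samples with the same number had correlations of -0.07 to 0.32, the highest between replicate 1 of day 2 and replicate 1 of day 14. Of 9 samples, 4 were closest to their own number. With 3 samples per day this cannot show whether the samples were paired, and the main fit used no pairing. The fit with the replicate block gave 3526 higher and 505 lower. Without read counts, no limit of detection can be given per gene.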

Other observations

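The circadian clock gave 5 genes higher and 3 lower of 16 (3 and 6 under median-of-ratios scaling). Nr1d1, which codes for REV-ERBα, a repressor of the clock's activators, had 15.7, 12.5 and 8.899 TPM at day 2 and 50.1, 42.4 and 67.4 TPM at day 14 (log2 fold change 2.03, SE 0.25, limma adjusted p = 0.000467), beside 22.3 ± 5.13 TPM at day 0. The days did not overlap, and the hour of harvest is not in the labels. In the MYC network, Mycn had 2.29, 1.53 and 4.71 TPM at day 2 and 19.7, 13.9 and 9.52 TPM at day 14 (log2 fold change 2.03, SE 0.31, limma adjusted p = 0.00168), while Mxi1, a MYC antagonist gene, fell from a range of 73.5 to 97.4 TPM to one of 47.2 to 53.5 TPM. Myc itself was not called, at a log2 fold change of 0.50. Of 15 genes of the NOTCH pathway 3 were higher and 5 lower (1 and 6). Hes1, a target of NOTCH, rose from a range of 44.7 to 77.05 TPM to one of 108 to 119 TPM, and Rbpj, the DNA-binding partner of NOTCH, fell from a range of 83.5 to 137 TPM to one of 47.3 to 67.1 TPM. Wnt7a, a secreted WNT ligand gene, rose from a range of 11.2 to 28.8 TPM to one of 38.5 to 82.4 TPM.

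Of 19 snoRNA host genes and nuclear noncoding RNAs 5 were higher and 2 lower (1 and 6), beside 27.4% and 3.79% over all genes. Neat1, the scaffold RNA of paraspeckles, had 909.9, 1050.4 and 1272 TPM at day 2 and 309, 474 and 501 TPM at day 14 (log2 fold change -1.35, SE 0.24, limma adjusted p = 0.00317), so all day 14 samples lay below all day 2 samples. Of 312 tested Zfp genes, which code for zinc finger proteins, 53 were higher and 9 lower (17 and 28), a share of higher genes below that of all genes, and Zfp367 rose from a range of 4.998 to 6.37 TPM to one of 25.02 to 29.6 TPM. Of 90 rows of snoRNAs 10 were higher and 0 lower (3 and 0), and of 188 rows of microRNAs 14 were higher and 3 lower (11 and 4), both below that share as well. Snora78, a guide of pseudouridylation, had 0, 0 and 10.2 TPM at day 2 and 176, 91.5 and 111 TPM at day 14 (log2 fold change 5.77, SE 0.79, limma adjusted p = 0.000946), beside 207 ± 18.8 TPM at day 0. Mir221 was listed at 0 in all day 2 samples and had 18.7, 90.9 and 55.1 TPM at day 14. The labels do not say how RNA was selected for the libraries, so these rows are not read as levels of mature short RNAs.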
